A study of Mus musculus with 8 samples.

Results

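Regions of open chromatin that lay away from gene ends and were called in every library were followed across LPS treatment and Nfat5 genotype. Peaks of the 8 lists on the main chromosomes were merged wherever they shared at least 1 base, which gave 87260 regions. Of these, 26117 (29.9%) were selected on 2 criteria: a peak was called there in all 8 lists, and they lay more than 1 kb from both ends of every protein-coding gene body of mouse build GRCm38. They are called shared distal regions here. The selection used the presence of peaks and the distance to genes. It did not use peak width, the measurement described below, but a region that shrank until its peak was lost in any library could not enter.

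The libraries are ATAC-seq, in which a transposase cuts accessible DNA, from macrophages grown from mouse bone marrow for 7 days in 25% conditioned medium of L929 cells, a source of the growth factor M-CSF. There are 4 groups of 2 libraries: wild-type (WT) macrophages left unstimulated, WT macrophages given 0.3 ng/ml E. coli lipopolysaccharide (LPS, a cell wall component of Gram-negative bacteria) for 2 h, and unstimulated and LPS-treated macrophages of NFAT5-deficient mice (KO). The labels give neither the age of the mice nor the design of the Nfat5 deletion, and they do not say whether replicates came from separate animals. P-values therefore measure the spread between these libraries, which may be technical.

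Open chromatin away from promoters contains most enhancers, DNA elements bound by transcription factors that regulate genes over long distances. In macrophages, lineage factors such as PU.1 and C/EBP proteins keep a large set of such elements accessible, and signal-dependent factors such as NF-kB, AP-1 and IRF proteins act on them after LPS. NFAT5 is a Rel-family factor best known for inducing osmoprotective genes under hypertonic stress, and it also takes part in the response of macrophages to Toll-like receptor ligands.

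The lists held 54027 to 60117 peaks per library, with medians of 422 to 443 bases in untreated and 402 to 415 bases in LPS libraries. They give positions without heights or counts, so the depth of each library is unknown and width, the number of bases covered by a library's peaks within a region, is the only quantity. The LPS lists held 54027 to 57691 peaks and the untreated lists 56346 to 60117. The shortest peak measured 164 to 174 bases in untreated and 156 to 167 bases in LPS libraries. The part that these list-wide differences have in the width changes was not tested. Set against cell type markers, 26 shared distal regions had a macrophage marker as nearest gene within 100 kb, at 9 of 10 markers. Fibroblast markers had 10 regions at 5 of 8 genes, dendritic cell markers 8 at 4 of 6, T cell markers 5 at 3 of 8, B cell markers 4 at 3 of 7, hepatocyte markers 4 at 2 of 4, and neutrophil and mast cell markers 1 each. Erythroid and neuron markers had 0. A peak near a marker is not its expression, and the dendritic cell regions were wider (median 676 bases) than the macrophage ones (498 bases), so these counts do not establish the purity of the cells.

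Of 73294 regions over 1 kb from gene ends, 35.6% were called in all 8 lists, against 70.8% of regions within 1 kb. The shared distal regions had a median mean width of 497 bases, and distal regions called in 7 of 8 lists (4852 regions) had 328. At the distance limit, the 160 regions from 1.0 to 1.1 kb had a median of 537 bases and the 155 shared regions from 0.9 to 1.0 kb, just outside, had 510. Of the shared distal regions, 54.4% lay inside a protein-coding gene body, and 93.5% held 1 peak in every library. Within 100 kb they had 8718 different nearest genes, at a median of 2 regions per gene, and 2299 lay farther than 100 kb from every gene.

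A small share of the regions overlapped the window of a transcription start that the outer ends of the gene body do not show. Windows ran from 250 bases before to 50 bases after a start. By RefSeq's start table (GRCm38.p6), 905 shared distal regions (3.47%) overlapped the window of a further start of a protein-coding gene. Another 546 overlapped only the window of a long non-coding RNA gene. The 905 were wider, with a median of 718 bases against 490 for regions without a listed start. Of all 36009 regions tested, 451 (1.25%) were called narrower and 160 (0.444%) wider with LPS by the test described below. Among the 905, 12 were called narrower, a share close to that of all regions, and 2 wider, a lower share. For 4 of these 14 the 250 bases before the start are shown. The 4 were not picked by a rule set beforehand, so they do not represent the 14. Atxn7l1 and Aim2 narrowed and Prr5l widened in both genotypes, while the Zeb2 region was called wider on the mean of both but had a log2 change of 2.01 in WT and -0.26 in KO. Aim2 encodes a sensor of cytosolic DNA, Prr5l a protein that binds the mTORC2 kinase complex, and Zeb2 a zinc-finger repressor active in macrophage lineages. The positions are chr12:33315155-33315404 on the plus strand for Atxn7l1, chr1:173420354-173420603 on the plus strand for Aim2, chr2:101797708-101797957 on the minus strand for Prr5l and chr2:45113280-45113529 on the minus strand for Zeb2. Of the 250 bases, 223, 250, 106 and 250 lie inside the region, in that order. Capitals mark the only match in these 4 sequences to a PU.1-type motif (GAGGAAGT, searched on both strands).
Atxn7l1: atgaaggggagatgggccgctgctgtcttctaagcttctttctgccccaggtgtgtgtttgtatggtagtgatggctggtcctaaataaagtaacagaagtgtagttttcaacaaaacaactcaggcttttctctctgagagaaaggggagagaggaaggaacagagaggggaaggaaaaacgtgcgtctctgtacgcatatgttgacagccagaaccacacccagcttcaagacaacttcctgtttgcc
Aim2: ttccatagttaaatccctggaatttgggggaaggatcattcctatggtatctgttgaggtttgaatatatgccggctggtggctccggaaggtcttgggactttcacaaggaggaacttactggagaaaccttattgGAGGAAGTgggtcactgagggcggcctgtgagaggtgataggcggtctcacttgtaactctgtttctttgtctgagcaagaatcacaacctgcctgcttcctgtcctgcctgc
Prr5l: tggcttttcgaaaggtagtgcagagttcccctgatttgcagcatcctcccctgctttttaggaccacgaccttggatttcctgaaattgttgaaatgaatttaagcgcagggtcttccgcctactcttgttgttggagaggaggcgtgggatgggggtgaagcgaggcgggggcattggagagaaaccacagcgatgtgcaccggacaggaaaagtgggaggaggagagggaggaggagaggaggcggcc
Zeb2: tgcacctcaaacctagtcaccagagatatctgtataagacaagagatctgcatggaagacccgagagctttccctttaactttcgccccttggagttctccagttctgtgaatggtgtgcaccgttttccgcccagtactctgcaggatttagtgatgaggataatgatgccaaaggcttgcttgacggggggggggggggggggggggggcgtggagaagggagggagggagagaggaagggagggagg
The GC content was 47.6% for Atxn7l1, 49.6% for Aim2, 55.2% for Prr5l and 55.6% for Zeb2, with 4, 4, 10 and 6 CpG dinucleotides. Over the 1043 protein-coding start windows at shared distal regions the medians were 59.2% GC and 14 CpG. All 32851 windows, long non-coding RNA starts included, had medians of 52.4% and 6. GAGGAAGT was found in 2.59% of the 1043 windows and 2.44% of all windows. A C/EBP-type pattern (TTGCNNAA) was found in 9.20% and 9.56%, an AP-1-type pattern (TGANTCA) in 4.70% and 6.75%, and the NFAT core TGGAAA in 13.8% and 18.6%, each on both strands. An NF-kB-type pattern, GGG and CC with 5 free bases between them, was found in 59.6% of the 1043 windows and 45.8% of all windows. An IRF-type pattern, GAAA repeated after 2 free bases, was found in 24 of the 1043 and 978 of all 32851 windows. None of these other 5 patterns occurs in the 4 sequences shown. The sets of windows differ in GC content and in kinds of genes. The shares are therefore not comparable as a measure of the patterns alone, and their differences were not tested.

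With LPS the shared distal regions were narrower. The library medians were 525 and 530 bases in untreated WT, 481 and 482 in LPS-treated WT, 518 and 520 in untreated KO, and 479 and 468 in LPS-treated KO. All 4 LPS libraries lay below all 4 untreated libraries, in both genotypes. The mean of library medians was 477.5 ± 6.455 bases with LPS and 523.2 ± 5.377 without (SD, n = 4 each), a difference of -45.75 bases. The two-sided exact permutation test gave p = 0.0286, the smallest that 4 against 4 libraries allow, and 0.0571 after adjustment over 12 such tests. The total covered length was 14.21 ± 0.1303 Mb with LPS and 15.46 ± 0.1584 Mb without (SD, n = 4 each, exact p = 0.0286, adjusted 0.0571).

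**Figure D1:**
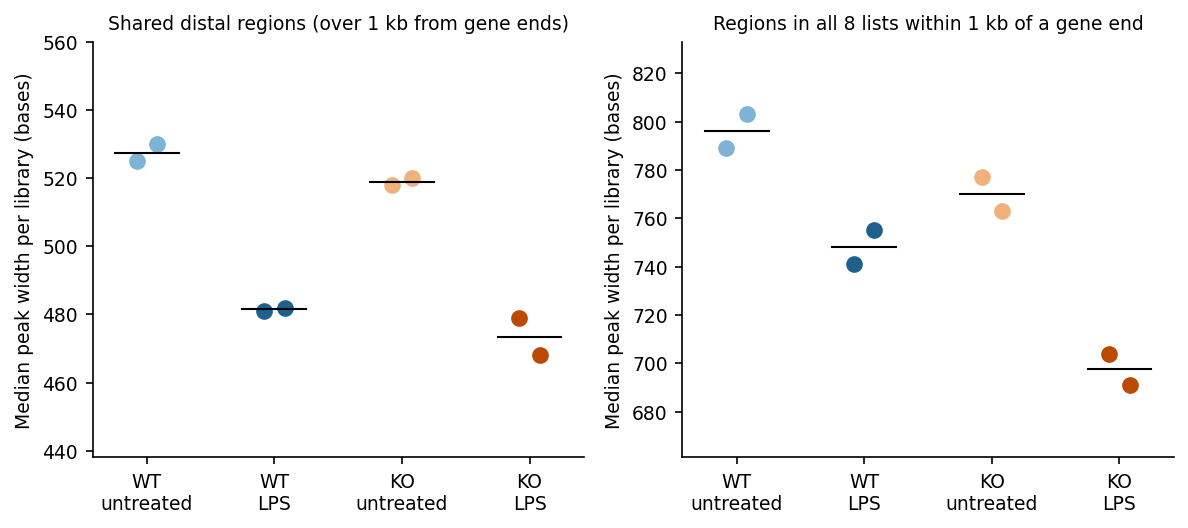
Median peak width per library in bases for the shared distal regions (left) and for regions of all 8 lists within 1 kb of a gene end (right); points are the 2 libraries of a group, bars their mean, and the axes do not start at 0. Distal medians of LPS libraries lie between 468 and 482 bases and those of untreated libraries between 518 and 530.

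Between genotypes the library medians differed less than between treatments. They averaged 504.5 ± 26.64 bases in WT and 496.2 ± 26.66 in KO (SD, n = 4 each, exact p = 0.514, adjusted 0.592). Within treatments, WT and KO averaged 527.5 and 519.0 bases untreated and 481.5 and 473.5 bases with LPS. Both KO libraries lay below both WT libraries in each treatment. The test pools the treatments, so its spread holds the LPS shift, and 2 libraries against 2 within a treatment were not tested. Regions in all 8 lists within 1 kb of a gene end also narrowed, from 763 to 803 bases without LPS to 691 to 755 with LPS, so the narrowing was not particular to distal regions. The distal median minus the gene-end median, on the log2 scale, was -0.5972 ± 0.04537 with LPS and -0.5813 ± 0.01978 without (SD, n = 4 each, exact p = 0.514, adjusted 0.592). The same quantity was -0.5640 ± 0.01451 in KO and -0.6145 ± 0.02653 in WT (exact p = 0.0286, adjusted 0.0571): all 4 KO libraries had relatively wider distal regions than all 4 WT libraries.

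Region by region, the median LPS change was -0.125 on the log2 scale, or -8.28%. The range from the 5th to the 95th percentile ran from -0.68 to 0.36, and 71.5% of regions were below 0. The median was -0.118 in WT and -0.115 in KO. The median ranged from -0.129 to -0.097 over 7 bins of distance to genes, and was -0.128 inside and -0.120 outside gene bodies. Over 5 width bins that divide the regions evenly, it was -0.154 in the narrowest, up to 352 bases, and -0.081 in the widest, from 717 bases. Across the 26117 regions the change in WT and in KO had a Pearson r of 0.41. The 2 replicate pairs had an r of 0.34 within WT and 0.26 within KO. Those pairs are differences of single libraries, whereas 0.41 rests on means of 2 libraries per group, so the values are not comparable. These are descriptions across regions, which share libraries and are not independent.

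Width of each region was tested with limma on log2 width over all 36009 regions called in all 8 lists, with Benjamini-Hochberg adjustment over all of them and a threshold of 0.05. Averaged over both genotypes, 372 shared distal regions (1.42%) were called narrower and 145 (0.555%) wider with LPS. Over all 36009 regions, the background, 1.25% were called narrower and 0.444% wider. The 372 narrowed regions had 336 different nearest genes within 100 kb and the 145 widened regions had 131. Median widths of the narrowed regions were 679 bases in untreated WT, 338 in LPS-treated WT, 694 in untreated KO and 399 in LPS-treated KO. For the widened regions the same medians were 368, 738, 338 and 674 bases.

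The regions called wider or narrower moved the same way in both genotypes in 512 of 517 cases. In 334 of the 372 narrowed and 132 of the 145 widened regions, the 4 LPS and the 4 untreated libraries did not overlap. Calls were made on the mean change of both genotypes in these same libraries. That selection favours equal directions and separated libraries, so both counts are descriptions. Without regard to the test, LPS libraries were all narrower than untreated libraries in 3039 regions (11.6%, background 10.8%) and all wider in 818 (3.13%, background 2.60%). The number of calls depended on single libraries. It was 0 in both directions without either replicate of untreated WT or untreated KO, or without replicate 1 of LPS-treated WT, and 68 narrower and 12 wider without replicate 2 of LPS-treated WT. It was 154 and 37 without replicate 1, and 79 and 25 without replicate 2, of LPS-treated KO. All 517 regions kept their direction in each of these 8 fits. They had been called on the same libraries, so a kept direction is largely set by the selection. Within a genotype the labels use the same code for 1 library of each treatment, and with the code as a replicate block limma called 0 regions in either direction (smallest adjusted p 0.111). Since the median of all regions shifted by -0.123 (log2) with LPS, the split of calls also depended on scaling: 72.0% of called regions were narrower on the widths as deposited, and 39.7% (137 narrower, 208 wider) after each library was centred on its median.

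**Figure D2:**
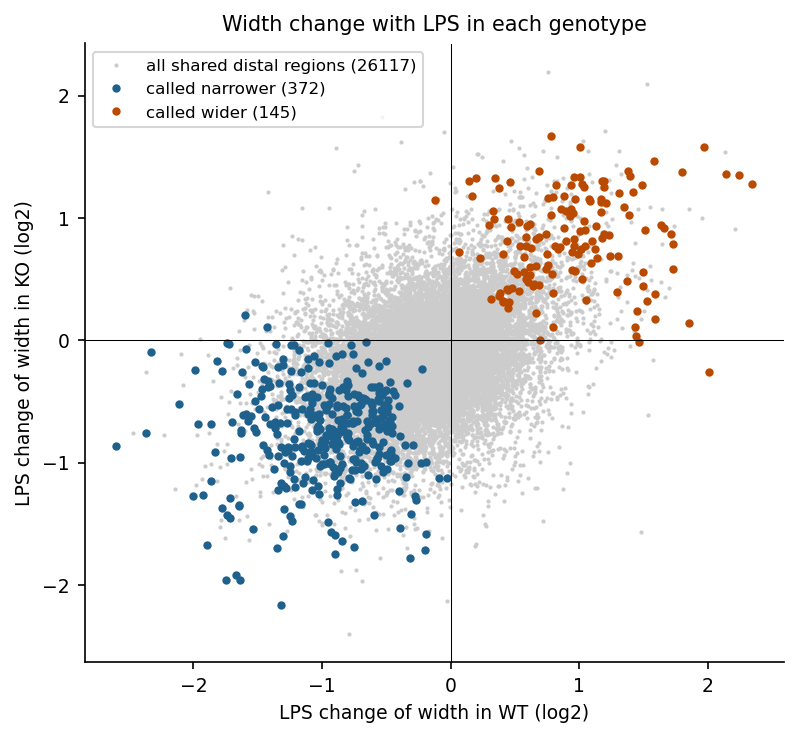
Log2 change of width with LPS in WT (horizontal) and in KO (vertical) for all 26117 shared distal regions, with the 372 called narrower and the 145 called wider coloured. Called regions, selected on the mean of both changes, fall in the lower left or upper right of the plot in 512 of 517 cases. The cloud of all regions lies below 0 on both axes at its median.

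Both edges of the peaks took part. Among the 24413 regions with 1 peak in every library, the left edge moved inward by a median of 16.8 bases and the right edge by 16.5 bases with LPS. In the 297 of these called narrower the medians were 127 and 120 bases, and in 283 of them both edges moved inward. In the 127 called wider both edges moved outward in 93. One edge carried more than 75% of the shift in 52.2% of the 297 narrowed and 63.8% of the 127 widened regions. The share was 65.7% of all 24413. Regions whose edges moved in opposite directions also entered this count. They were common among all 24413, of which 11857 had both edges inward and 3293 both outward, but rare among the 297. The shares are therefore not comparable and do not show whether called regions changed more at one edge. More regions were also split with LPS: 627.2 ± 74.85 regions held 2 or more peaks in an LPS library against 464.8 ± 43.48 in an untreated library (SD, n = 4 each, exact p = 0.0286, adjusted 0.0571).

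**Figure D3:**
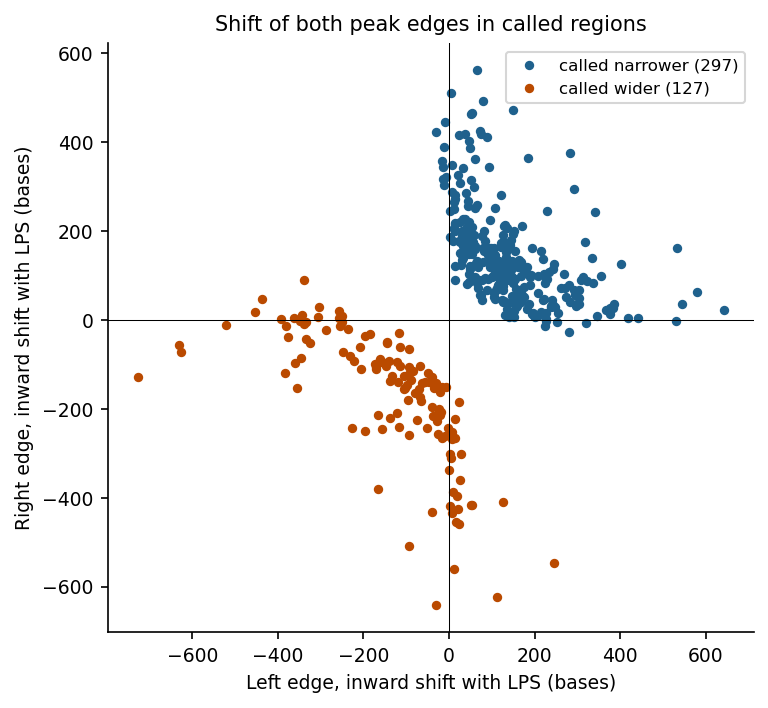
Inward shift with LPS of the left edge (horizontal) and of the right edge (vertical), in bases, for the 297 narrowed and 127 widened regions with 1 peak in every library; negative values are outward shifts. Both edges moved inward in 283 of the 297 and outward in 93 of the 127.

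The narrowed regions with the largest changes lay at genes of varied function. Atxn7l1, a gene related to ataxin 7, held the region with the largest decrease (chr12:33315182-33316713, inside the gene body, over the start shown above). Its widths were 1271 and 780 bases in untreated WT, 323 and 274 in LPS-treated WT, 1400 and 1127 in untreated KO, and 305 and 341 in LPS-treated KO. Every LPS library was below every untreated library, with a log2 change of -1.85 ± 0.18 (SE, limma adjusted p = 0.0234). A region 5.42 kb from Ppp1r3b, which encodes a subunit that targets protein phosphatase 1 to glycogen (chr8:35393563-35394461), measured 636 and 894 bases in untreated WT, 236 and 250 in LPS-treated WT, 839 and 831 in untreated KO, and 207 and 224 in LPS-treated KO. The groups of 4 were again apart (-1.79 ± 0.14, limma adjusted p = 0.0182). Inside Sdhb, the iron-sulfur subunit of succinate dehydrogenase (chr4:140963030-140965017), the widths were 1879 and 1665, 541 and 537, 1508 and 1988, and 518 and 773 bases in the same order of groups. That region had a change of -1.58 ± 0.15 (SE, limma adjusted p = 0.0234).

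Inside Capzb, which encodes a subunit of the actin capping protein, LPS-treated WT libraries were the narrowest (chr4:139232201-139233391). WT widths were 915 and 1027 bases untreated and 157 and 163 with LPS, whereas KO widths were 1073 and 1191 untreated and 671 and 577 with LPS. The mean LPS change was -1.73 ± 0.10 (SE, limma adjusted p = 0.0182), and KO was wider than WT among LPS libraries by the test given below. The interaction of LPS and genotype there was 1.74 ± 0.19 and did not pass (limma adjusted p = 0.274). The other named narrowed regions lay at Mettl8, St6galnac5, Tmem40, Rnf121, Fam189a2 and Ints1, with log2 changes from -1.80 to -1.58 and limma adjusted p-values from 0.0234 to 0.0440. In each of these 6, all LPS libraries were below all untreated libraries.

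The widened regions with the largest changes included regions near Gadd45a, Ch25h and Tgm2. The region 3.57 kb from Gadd45a, a growth arrest and DNA damage response gene (chr6:67040977-67042140), measured 238 and 191 bases in untreated WT, 1164 and 878 in LPS-treated WT, 284 and 264 in untreated KO, and 694 and 700 in LPS-treated KO. Its log2 change was 1.80 ± 0.14 (SE, limma adjusted p = 0.0182). Near Ch25h, the LPS- and interferon-inducible cholesterol 25-hydroxylase, a region 27.7 kb away (chr19:34444721-34446067) measured 487 and 749, 1191 and 1239, 330 and 329, and 1149 and 850 bases in the same order (1.30 ± 0.16, limma adjusted p = 0.0289). Both regions had all LPS libraries above all untreated libraries. The region inside Tgm2, which encodes transglutaminase 2 (chr2:158136025-158136605), measured 227 and 179 bases in untreated WT, 581 and 551 in LPS-treated WT, 250 and 223 in untreated KO, and 562 and 580 in LPS-treated KO, close in both genotypes (1.38 ± 0.12, limma adjusted p = 0.0220).

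The other named widened regions lay at Olfr267, Igf2bp2, Alpk2, Gphn, Rnf19b, Zeb2 and Sema6d, with log2 changes from 1.29 to 1.81 and limma adjusted p-values from 0.0182 to 0.0451. The Zeb2 region lay 26.0 kb outside the gene (chr2:44956173-44957521), with 495 and 328 bases in untreated WT, 950 and 1215 in LPS-treated WT, 497 and 534 in untreated KO, and 1175 and 1220 in LPS-treated KO. In all 7 the LPS libraries lay above the untreated ones. A mean untreated width under 300 bases was found in 53 of the 145 widened regions (36.6%) and in 9.01% of all shared distal regions. A mean LPS width under 300 bases was found in 124 of the 372 narrowed regions (33.3%) and in 14.8% of all. The regions were called on these same widths, so both higher shares are largely set by the selection.

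**Figure D4:**
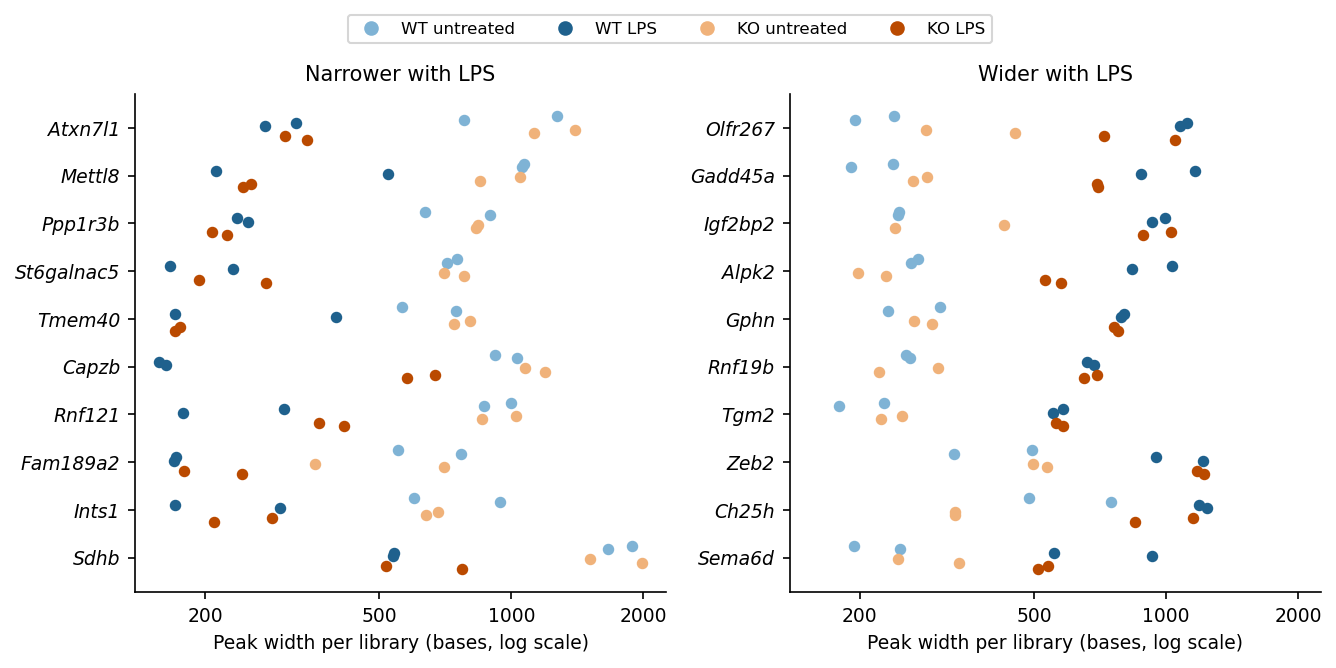
Peak width in each library (bases, log scale) of the 10 regions with the largest decrease (left) and the 10 with the largest increase (right) among regions called with LPS, labelled by nearest gene; each point is 1 library. All LPS points lie on one side of all untreated points in every row, and at Capzb the KO points lie nearer to the untreated ones than the WT points do.

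Lists of genes were described by the regions nearest to their members. Genes of the early LPS response had 113 shared distal regions at 33 of 43 genes, of which 5 (4.42%) widened and 1 (0.885%) narrowed, beside 0.444% and 1.25% of all 36009 regions, and 46.9% had a change above 0 against 28.5% of all shared distal regions. Their median LPS change was -0.013 against -0.125 for all, and 0.110 against -0.002 after library centring. Widths near these genes had medians of 556 and 558 bases in untreated WT, 551 and 555 in LPS-treated WT, 568 and 533 in untreated KO, and 538 and 495 in LPS-treated KO. The late LPS response list had 38 regions with a median of 0.079, 1 of them (2.63%) called wider and 0 narrower. For 24 regions at 10 LPS genes linked to NFAT5 the median was 0.082 (0.035 in WT and 0.002 in KO). Of these 24, 2 (8.33%) were called wider, both also on the early list, and 0 narrower. All these counts are small.

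The region 20.3 kb from Il1a, which encodes interleukin 1 alpha (chr2:129330492-129331125), measured 191 and 183 bases in untreated WT, 534 and 632 in LPS-treated WT, 240 and 187 in untreated KO, and 484 and 342 in LPS-treated KO. It widened by 1.29 ± 0.16 (log2 ± SE, limma adjusted p = 0.0294), with no overlap between treated and untreated libraries. A region 18.8 kb from Ccl2, a monocyte-attracting chemokine (chr11:82016169-82016738), measured 191 and 262, 532 and 569, 334 and 284, and 463 and 535 bases in the same order (1.00 ± 0.15, limma adjusted p = 0.0399). The region 1.86 kb from Zfp36, whose product degrades cytokine mRNA (chr7:28381089-28382181), measured 323 and 403, 697 and 536, 459 and 438, and 1026 and 983 bases (0.96 ± 0.12, limma adjusted p = 0.0305). At Zfp36 the KO libraries reached the largest widths after LPS. Smaller increases were called near Ccl3, an inflammatory chemokine (0.44 ± 0.06, limma adjusted p = 0.0340), and Nfkbiz, the NF-kB regulator IkB-zeta (0.33 ± 0.05, limma adjusted p = 0.0451). Acod1, the itaconate-producing enzyme of the late list, had an increase of 0.45 ± 0.06 (limma adjusted p = 0.0328).

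One region of the early list narrowed. It lay 17.9 kb from Atf3, a stress- and LPS-induced repressor (chr1:191201201-191201741), with 524 and 532 bases in untreated WT, 240 and 234 in LPS-treated WT, 499 and 523 in untreated KO, and 265 and 292 in LPS-treated KO (-1.02 ± 0.10, limma adjusted p = 0.0234). Single genes could hold changes of both signs. At Tnfaip3, which encodes the NF-kB inhibitor A20, 10 shared distal regions ranged from -1.33 (4.08 kb from the gene, limma adjusted p = 0.0697) to 0.81 (35.6 kb from the gene, limma adjusted p = 0.0528), and 0 of the 10 passed the test. Nfkb1, which encodes the NF-kB subunit p105/p50, had 13 regions from -0.49 to 0.92 and 0 calls. Among all genes, 23 had 2 or more called regions, and 8 of these had calls in both directions. Of all called regions, 72.0% were narrower and the rest wider, so mixed directions can arise without any property of a gene. Whether the 8 exceed that was not tested. Tnf and Clec4e were the nearest gene of 0 shared distal regions. Il6 had 1 region and Il1b 4, with changes of 0.23 and of -0.11 to 0.42 and 0 calls.

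Regions at macrophage identity genes followed the general narrowing. The 141 regions at 29 of 31 genes had a median of -0.120, and 0.003 after library centring. Of these, 4 (2.84%) narrowed and 0 widened, beside 1.25% and 0.444% of all 36009 regions. The largest called change was 10.6 kb from Adgre1, which encodes the macrophage surface protein F4/80 (chr17:57347017-57347999). Widths there were 968 and 936 bases in untreated WT, 429 and 375 in LPS-treated WT, 954 and 931 in untreated KO, and 494 and 432 in LPS-treated KO. The LPS libraries, at most 494 bases, lay well apart from the untreated ones, at least 931 bases (-1.14 ± 0.09, limma adjusted p = 0.0182). The other calls lay near Maf, a macrophage transcription factor (-0.76, limma adjusted p = 0.0387), Fli1, an ETS factor (-0.87, limma adjusted p = 0.0425), and Tlr2, the lipoprotein receptor (-0.82, limma adjusted p = 0.0441). At Spi1, the gene of PU.1, 2 regions changed by -0.03 and 0.04, and at Csf1r, the M-CSF receptor, 4 regions changed by -0.49 to -0.12, with 0 calls at either gene.

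Among genes of cholesterol and lipid handling, 2 of 50 regions (4.00%, against 1.25% of all 36009) narrowed and 0 widened, and the median was -0.157 (-0.034 after library centring). The region inside Mylip, a ubiquitin ligase that degrades the LDL receptor (chr13:45391426-45392310), measured 706 and 633 bases in untreated WT, 339 and 202 in LPS-treated WT, 872 and 875 in untreated KO, and 286 and 255 in LPS-treated KO (-1.52 ± 0.18, limma adjusted p = 0.0283). The second lay 1.62 kb from Plin2, the lipid droplet coat protein perilipin 2 (-0.66 ± 0.11, limma adjusted p = 0.0451). Of 29 regions at circadian and glucocorticoid response genes, with a median of -0.192, 1 (3.45%) narrowed, inside the clock gene Arntl (-1.01 ± 0.15, limma adjusted p = 0.0420). Alternative activation genes had 37 regions with a median of -0.137, of which the Tgm2 region widened and a region inside Pparg, a lipid-sensing nuclear receptor, narrowed.

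The Pparg region (chr6:115375026-115376014) measured 965 and 978 bases in untreated WT, 565 and 571 in LPS-treated WT, 567 and 598 in untreated KO, and 586 and 548 in LPS-treated KO. The untreated WT libraries alone were wide (mean change -0.41 ± 0.07, limma adjusted p = 0.0486). Toll-like receptor signalling genes had 64 regions with a median of -0.103 and 1 call, the Tlr2 region above. The interferon response list (25 regions, median -0.050), the osmotic stress list (32, -0.058), the MHC class II list (11, -0.151) and the cell cycle list (44, -0.030) had 0 calls. Within genotypes the interferon median was 0.021 in WT and 0.004 in KO. After library centring, the medians of the Toll-like receptor, interferon, osmotic stress and cell cycle lists were above 0, at 0.020, 0.073, 0.065 and 0.092. Housekeeping genes had 17 regions with a median of -0.090 (0.033 after centring) and 1 (5.88%) narrowed, inside Ywhaz, which encodes a 14-3-3 protein. Within genotypes the housekeeping median was 0.016 in WT and -0.190 in KO. The largest change of that list was a widening 7.34 kb outside Ywhaz that was not called (1.18 ± 0.22, limma adjusted p = 0.0578).

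**Figure D5:**
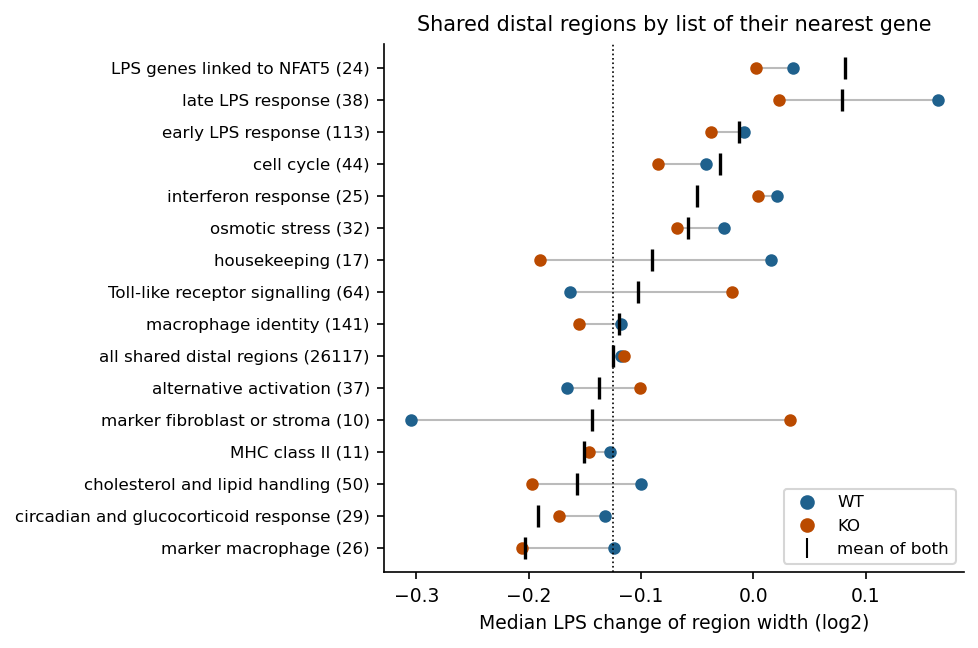
Median log2 change of width with LPS of the shared distal regions nearest to the genes of each list with 10 or more regions (number of regions in brackets), for WT, for KO and (ticks) for each region's mean over both genotypes, a median that need not lie between the other two; the dotted line is the median of all shared distal regions, -0.125. The late LPS response and NFAT5-linked lists lie above 0 and the circadian list at -0.192.

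Tested within WT alone, 15 shared distal regions narrowed (background 0.0472%) and 5 widened (background 0.0167%) with LPS. The 5 lay at Lipg, Tnfrsf26, Alpk2, Zeb2 and Gadd45a. The 15 narrowed regions included Capzb, Adgre1, Smad1, a mediator of BMP signalling, and Tnip3, an LPS-induced inhibitor of NF-kB, all chosen for mention after their values were seen. In KO alone 0 regions were called by limma, with 2687 narrower and 794 wider at an unadjusted p under 0.05 and a smallest adjusted p of 0.0705. In WT the unadjusted counts were 3434 and 961. Unadjusted counts, here and below, are out of 26117 regions. With no change anywhere, a share of 0.05, both directions together, would be expected to pass. The counts do not test a difference between the genotypes.

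That difference, the interaction of LPS and genotype, passed the limma threshold in 0 of the 26117 regions. At an unadjusted p under 0.05, 749 were lower and 939 higher in KO, with a smallest adjusted p of 0.0778. The smallest belonged to a region inside Tnfrsf26, a TNF receptor family gene (chr7:143624625-143625427), with 261 and 270 bases in untreated WT, 773 and 706 in LPS-treated WT, 743 and 748 in untreated KO, and 243 and 260 in LPS-treated KO. The WT libraries widened and the KO libraries narrowed, by an interaction of -3.05 ± 0.19 (log2 ± SE, limma adjusted p = 0.0778). The region over the Zeb2 start shown above (chr2:45113013-45114272) measured 212 and 183 bases in untreated WT, 785 and 798 in LPS-treated WT, 971 and 1178 in untreated KO, and 804 and 991 in LPS-treated KO. Only the untreated WT libraries were narrow there (LPS change 0.87 ± 0.11, limma adjusted p = 0.0309; interaction -2.27 ± 0.23, limma adjusted p = 0.273).

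Zeb2 was 1 of the 5 called regions whose change had opposite signs in WT and KO. The others lay at Cdk14, Spp1, Lrrtm4 and Lipg. Near Lipg, which encodes endothelial lipase, WT widths were 478 and 494 bases untreated and 1440 and 1244 with LPS, and KO widths were 543 and 536 untreated and 549 and 519 with LPS. The 4 KO libraries there spanned 519 to 549 bases. Near Spp1, the gene of osteopontin, the untreated KO libraries stood apart with 438 and 442 bases, against 1204 and 1180 in untreated WT, 977 and 1233 in LPS-treated WT, and 999 and 948 in LPS-treated KO.

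By genotype, averaged over treatments, the regions changed little. The median change, KO minus WT, was -0.017 on the log2 scale in shared distal regions and -0.054 in regions near gene ends. limma called 1 shared distal region wider and 0 narrower in KO (background 0.00278% in each direction), with 1190 and 1513 at an unadjusted p under 0.05. The 1 region (chr9:113025963-113027397) lay 624 kb from its nearest protein-coding gene, Pdcd6ip. It measured 329 and 380 bases in untreated WT, 234 and 180 in LPS-treated WT, 1216 and 1060 in untreated KO, and 1435 and 1278 in LPS-treated KO. Each KO library was wider than each WT library (2.20 ± 0.12, limma adjusted p = 0.0357). Without any 1 of the 8 libraries, this call was lost in each fit.

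All KO libraries were narrower than all WT libraries in 668 regions (2.56%, background 2.97%) and wider in 336 (1.29%, background 1.08%). Among those not called, the region inside Exoc2, a subunit of the exocyst (chr13:30819893-30820539), measured 404 and 420 bases in untreated WT, 567 and 626 in LPS-treated WT, 191 and 179 in untreated KO, and 242 and 200 in LPS-treated KO (-1.30 ± 0.12, limma adjusted p = 0.0659). The Zeb2 start region had a genotype change of 1.31 ± 0.11 in the other direction (limma adjusted p = 0.0659). Untreated KO and WT differed in 0 regions by limma, with 1019 narrower and 644 wider at an unadjusted p under 0.05 and a smallest adjusted p of 0.101.

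Among LPS-treated libraries, limma called 4 regions narrower in KO, at Tnfrsf26, Aqp3, Pstpip1 and Lipg (background 0.0167% in each direction). It called 4 wider, at Capzb, at Gm34521, 116 kb from Rpl14, and at the region nearest to Pdcd6ip. Pstpip1 encodes an adaptor that binds the inflammasome protein pyrin, and Aqp3 a channel for water and glycerol. At Pstpip1 (chr9:56075304-56076305) the widths were 898 and 862 bases in untreated WT, 801 and 731 in LPS-treated WT, 895 and 985 in untreated KO, and 297 and 277 in LPS-treated KO. At Aqp3 (chr4:41073024-41073956) they were 809 and 894, 627 and 741, 796 and 822, and 228 and 243 bases. In both regions the LPS-treated KO libraries alone were narrow. Near Nfat5 itself the 3 shared distal regions changed by -0.50 to 0.52 with LPS and 0 were called. The nearest of them, 1.73 kb from the gene, measured 251 and 507 bases in untreated WT, 585 and 614 in LPS-treated WT, 396 and 520 in untreated KO, and 569 and 545 in LPS-treated KO.

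Large genes held the most regions. Pde4d, which encodes a cAMP phosphodiesterase, had 41, all inside its gene body of 1302 kb. Akap13, Lpp and Zmiz1 had 24 each and Foxp1 had 23, with median changes from -0.13 to -0.03 and 0 calls at these 5 genes. The widest regions showed little change with LPS. A region 1.32 kb from Gas8 covered 72413 to 84988 bases without and 81754 to 85576 with LPS, and one at the start of the assembled sequence of chromosome 9 (chr9:3000030-3038287) covered 38240 to 38258 bases in all 8 libraries. Of the other 3 among the widest, 2 kept within -0.06 to -0.01 (log2), and 1 on the X chromosome varied between replicates from 1774 to 27485 bases.

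MicroRNA genes lay within 1 kb of 48 shared distal regions, near 54 hairpins in all. Their median LPS change was -0.161, and 0 were called (smallest limma adjusted p = 0.0554). The region at Mir155, an LPS-induced microRNA, measured 1108 and 295 bases in untreated WT, 698 and 682 in LPS-treated WT, 241 and 514 in untreated KO, and 684 and 609 in LPS-treated KO (0.57 ± 0.44, limma adjusted p = 0.485). The untreated libraries enclosed the LPS libraries there.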

How the data were processed

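The deposited unit is a list of peak positions (chromosome, start and end, build GRCm38) that the authors made for each library separately, per the labels, with no score or count. The tools named in the submitters' processing notes are MACS2 2.1.1, Bowtie2 2.3.0, bcl2fastq 2.17.1.14 and Picard. Not given in the sources used here are thresholds, duplicate handling and any shift of cut sites, all of which can move peak edges.

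Peaks on 21 main chromosomes were merged, and the width of a region in a library is the sum of the bases of its peaks there. Gene bodies came from the RefSeq gene table for GRCm38.p6 (21887 protein-coding genes, no strand), and the nearest gene was taken within 100 kb unless a greater distance is printed. Log2 widths of 36009 regions were fitted with limma 3.58.1 (R 4.3.3) as 4 group means, with a mean-variance trend in the empirical Bayes step and Benjamini-Hochberg adjustment (threshold 0.05). The script was tested on simulated data. Library values were compared by exact permutation (70 arrangements). Python 3.11.15 and pandas 2.3.3 were used for the rest.

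Named regions are the 10 with the largest change in each direction among called regions whose arms do not overlap (for the interaction 5, without that condition), up to 3 per gene list, the widest 5, the 5 genes with most regions, and 16 genes of interest. Called regions of a list, and regions in counts of 5 or fewer, are named as well, chosen after their values were seen. The regions and the 23 gene lists (301 genes, 3 without a match) were chosen with earlier results of these data known. Start windows of chromosome 18 are not used here. Alternatives covered the width measure, scaling, distance limit, filters, model, replicate block and each library left out.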

Additional observations from a re-analysis of the deposited data

Results flagged for a closer look

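In each of 4 regions, both LPS libraries lay on one side of both untreated libraries in WT and on the opposite side in KO. The interaction test of limma called none of these regions. At Tnfrsf26 the interaction was -3.05 (log2, KO minus WT change), with WT wider and KO narrower after LPS. At Dlg2 it was 2.46, where WT libraries went from 674 and 504 bases to 402 and 245 and KO libraries from 344 and 209 to 820 and 774. Near Cnep1r1 it was 2.36, with WT from 757 and 685 to 592 and 420 bases and KO from 180 and 244 to 984 and 563. At Dnm3 it was 2.24, with WT from 635 and 602 to 312 and 247 bases and KO from 555 and 255 to 747 and 849. These 4 were found among the 10 regions with the largest interactions of 26117, so the opposite directions are a description.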

How the results depend on the processing

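With no heights or counts in the lists, neither depth nor signal can be weighed, and each group has 2 libraries. The LPS decrease of the library median (-45.75 bases) ranged from -47.5 to -42.6 without single libraries. Its exact p of 0.0286 was below 0.05 only before adjustment (adjusted 0.0571). It was -3.15 bases (exact p = 0.371) after each library was scaled to its median log2 width, which removes most of a shift common to all regions by construction. The genotype difference of -8.25 bases, with an exact p of 0.514, was 5.54 after that scaling, of opposite sign and with an exact p of 0.0286 before adjustment, the smallest possible, and ranged from -16.2 to 1.17 without single libraries, being above 0 without replicate 2 of untreated WT (0.25) or of LPS-treated KO (1.17). The LPS difference between distal and gene-end medians ranged from -0.0297 to 0.0009 without single libraries, the latter without replicate 2 of LPS-treated WT.

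The 372 narrower and 145 wider calls with LPS became 137 and 208 after scaling, and 196 and 76 with only peaks of at least 250 bases. They were 0 and 0 with the replicate block, and ranged from 0 to 154 and from 0 to 37 without single libraries. The labels give the same code to an untreated and an LPS library but do not say that they share an animal. Deviations of libraries with the same code correlated across regions at 0.056 in WT and 0.051 in KO, and those with only the same replicate number at -0.004 to 0.048. Whether the codes are a pairing is not settled by this, and the replicate block also gave 0 and 0 in WT and 0 wider in KO.

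The WT counts of 15 narrower and 5 wider became 107 and 32 with the widest peak in place of the sum, 3 and 2 after scaling, 48 and 25 on linear width, 1 and 1 where peaks covered at least 25% of the region, and 34 and 8 with only peaks of at least 250 bases. They were 54 and 24 without the trend, 29 and 8 among regions of at least 400 bases, and ranged from 0 to 20 and from 0 to 1 without single libraries. For LPS in KO, with 0 calls, counts were 13 and 3 with the widest peak, 2 narrower for regions with 1 peak in every library, 9 and 3 with peaks of at least 250 bases, and 2 and 1 at 400 bases or more, and ranged from 0 to 4 narrower without single libraries. By genotype (0 narrower and 1 wider), counts were 2 and 3 with the widest peak and 1 narrower without the trend. The wider call was 0 at 25% coverage, with peaks of at least 250 bases and without any single library (range 0 to 0). The interaction gave 1 call without the trend. The cause of these changes was not tested.

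All 517 calls with LPS kept their direction in each alternative fit compared region by region (all but the limit of 250 bases), where the region was tested. These fits use the libraries on which the regions were called, so a kept direction is largely set by the selection. Among 74 changes called and named, 74 lost their call with the replicate block and 31 after scaling. Settings chosen after seeing the data were the ends of genes of all kinds, the removal of regions over 5 kb and the limit of 400 bases. With the first, LPS calls were 348 and 137, with the second 362 and 141, and with the third 256 and 104.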
